A study of Homo sapiens with 15 samples.

Results

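The genes described here carry a LINC number as their symbol, a naming used for long intergenic non-coding RNA genes. They were chosen by name and by detection: the symbol begins with LINC and a digit, and the gene had 10 or more counts in at least 3 of the 15 libraries. The rule kept 285 genes, of 2271 with a LINC symbol and 60664 gene IDs in all. Near that minimum, 20 LINC genes reached it in exactly 3 libraries, 25 in exactly 2 libraries and 52 in 1 library, while 1909 reached it in no library and 91 reached it in all 15.

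Long intergenic non-coding RNAs are transcripts of RNA polymerase II from between the protein-coding genes, usually spliced and polyadenylated, that hold no long open reading frame. Some act on chromatin or on the genes beside them, some bind proteins or microRNAs, some are hosts from which microRNAs are cut, and for many no function is known. They tend to be made at low level and in few cell types, and in luminal breast cancer cells several are transcribed under the oestrogen receptor.

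The cells were T47D, an established luminal breast cancer line whose growth depends on oestrogen receptor alpha, as the parental line PAR01, which the labels call sensitive to 4-hydroxytamoxifen (4-OHT), and as TR01, a derivative of it that the labels call resistant. 4-OHT is the active metabolite of tamoxifen and blocks the oestrogen receptor, and erdafitinib inhibits the tyrosine kinases of the fibroblast growth factor receptors. There were 5 groups of 3 libraries: TR01 cells on both drugs (TR combination), on 5 µM erdafitinib (TR erdafitinib), on 1 µM 4-OHT (TR 4-OHT) and on 0.05% DMSO (TR vehicle), and PAR01 cells on 0.05% DMSO (PAR vehicle). TR01 had been kept in 2% charcoal-stripped serum with 1 µM 4-OHT and PAR01 in 5% serum that the labels do not call stripped, so line and growth history cannot be told apart. All cells then spent 24 h in their own medium, 48 h in phenol red-free medium with 2% charcoal-stripped serum and 120 h on treatment, so every TR group, vehicle included, came from cells with a history of 4-OHT. The labels name 1 parental and 1 resistant line and do not say whether the resistant line is a clone. The libraries of a group are said to be biological replicates, with no word on separate cultures, so the p-values measure a spread that may be technical.

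The libraries held 6946684 to 28717380 gene counts (median 22304029), the shallowest being PAR vehicle 2 and TR 4-OHT 2, and mitochondrial genes took 14.5 to 25.7% of them. Libraries of a group were not equally alike by chi-square per gene, a measure that also grows with depth. TR vehicle 1 stood at 156 and 155 from TR vehicle 2 and 3, which stood at 15.5 from each other. PAR vehicle 3 stood at 115 and 70.2 from PAR vehicle 1 and 2, which stood at 16.2 from each other. Levels are given in CPM, a gene's count scaled to a common library total with edgeR's TMM factors. The 8 luminal markers were all detected, with a summed level of 1987 to 3766 CPM in TR vehicle and 6210 to 7001 CPM in PAR vehicle. Of these, GATA3 (log2 fold change 0.45) was higher in TR vehicle, and ESR1 (-1.44), PGR (-4.62) and FOXA1 (-1.25) were lower. The 3 endothelial markers summed to at most 0.0516 CPM in any library and the 4 leukocyte markers to 0 to 1.4 CPM, with CD3E at 0. The 4 fibroblast markers summed to 11.9 to 34.9 CPM, nearly all of it COL1A1 (11.9 to 34.8 CPM). COL1A2 was at 0, and PDGFRB and DCN had 1 and 6 counts in all 15 libraries together. In such bulk RNA, fewer cells with a transcript and less transcript per cell cannot be told apart.

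Most of the 285 genes are annotated as lincRNA (229 genes), 20 as antisense, 19 as processed transcripts and 9 as transcribed pseudogenes of the unprocessed kind. Another 1 is typed as protein-coding. By gene span, introns included, 78 of the 285 overlap another gene on the same strand and 145 overlap one on the opposite strand. Only 120 overlap no other gene, so the set is not strictly intergenic. Their exons covered 3536 bases at the median (371 to 33198), in a median of 5 exon blocks. Their levels were low: the median of the mean over all libraries was 1.32 CPM, with a range of 0.168 to 169 CPM, and 118 of the 285 averaged under 1 CPM while 38 averaged 10 CPM or more. Per kilobase of exon, the 276 that were tested had a median level of 0.528 CPM, against 3.75 CPM for the 12951 protein-coding genes tested. A few genes carried much of the signal, since the 10 with the most counts held 40.9% of the 507105 counts of all 285, and LINC02303 alone held 11.5%.

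Together the 285 genes took a small share of each library, which was 0.155 ± 0.00849% in TR combination, 0.157 ± 0.00302% in TR erdafitinib, 0.162 ± 0.00444% in TR 4-OHT and 0.161 ± 0.0117% in TR vehicle, against 0.140 ± 0.0108% in PAR vehicle (SD, n = 3 each). LINC02303 held most of the difference between the lines: without LINC02303 the shares were 0.137% in TR combination, 0.138% in TR erdafitinib, 0.140% in TR 4-OHT, 0.137% in TR vehicle and 0.139% in PAR vehicle. LINC02303 made up 8.95 to 19.9% of the LINC counts in the 12 TR libraries, against 0.105 to 0.258% in the 3 PAR libraries. In 57 of the 285 genes (20%) the minimum of 10 counts was reached in TR libraries only, in 5 (1.75%) it was reached in PAR libraries only, and 10 genes had no count in any PAR library. Over all 16336 genes that passed the same rule, the shares were 9.11% in TR libraries only and 0.441% in PAR libraries only. These counts set 12 TR libraries against 3 PAR libraries, so TR had more chances to reach the minimum, and they describe the choice of genes and test nothing.

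The comparison of resistant with parental cells on vehicle asks which LINC genes differ between the 2 lines without drug. Of the 276 LINC genes tested, 113 passed the test, here termed called, 59 higher and 54 lower in TR vehicle (edgeR quasi-likelihood test, Benjamini-Hochberg adjusted p under 0.05 over 16210 genes). That is 40.9% of them, against 35.9% of all genes tested, which were higher in 19.9% and lower in 16% of cases. Among protein-coding genes 37.1% were called, and among 1824 genes of other long non-coding types 29.9%. The share called was larger at higher levels: it was 31.0% of the 100 LINC genes with an average log2 CPM under 0, 38.2% from 0 to 2, 49.1% from 2 to 4 and 81.0% (17 of 21) at 4 or more, against 28.2%, 34.2%, 35.3% and 39.3% of all genes in the same ranges. The median log2 fold change of the LINC genes was 0.03, beside 0.07 for all genes tested. With only the 2 groups in the fit, in place of all 15 libraries, 69 were called (34 higher, 35 lower), all of them among the 113.

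In 109 of the 113 called genes (96.5%) the 3 TR vehicle libraries and the 3 PAR vehicle libraries did not overlap, and 99 (87.6%) differed at least 2-fold, 53 higher and 46 lower, also when the 10 genes with 0 counts in 1 group are taken at their lower limit. Non-overlap largely follows from being called: of all 5818 genes called in this comparison, 91.7% did not overlap, and 66.8% differed at least 2-fold. All 12 TR libraries, drugs included, lay above all 3 PAR libraries in 44 of the 59 higher LINC genes (74.6%), and below them in 42 of the 54 lower ones (77.8%). Over all genes called the same shares were 77.6% of the higher and 75% of the lower genes, so the LINC shares lay near the background. Of the 163 genes not called, 78 had a log2 fold change within 0.5 of 0, and 8 differed at least 4-fold by the fitted value without passing.

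**Figure D1:**
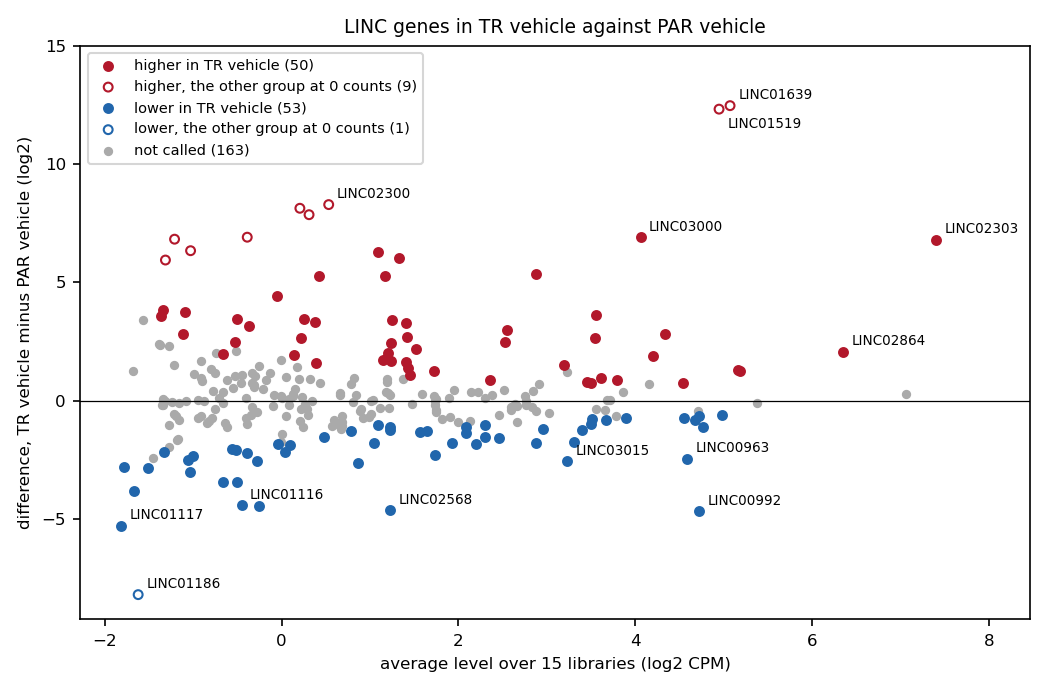
Each point is 1 of the 276 LINC genes tested, placed by its average level (log2 CPM, horizontal axis) and its log2 fold change of TR vehicle over PAR vehicle (vertical axis); colours mark the 59 genes called higher, the 54 called lower and the 163 not called, and open points are genes with 0 counts in 1 of the 2 groups, whose fitted value is no bound. Called genes lie on both sides of 0 over most of the range of levels, and the largest values belong to genes with no count in 1 of the groups.

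The most abundant LINC RNA of the resistant cells was LINC02303 (ENSG00000258616; GRCh38 chr14:45706250-45715952, minus strand; 1144 bases of exon), a gene that overlaps no other gene. It had 366, 163 and 206 CPM in TR vehicle, against 2.27, 3.65 and 1.35 CPM in PAR vehicle. Every TR library was far above every PAR library, and the log2 fold change was 6.81 ± 0.44 (SE, edgeR adjusted p = 3.47e-08). Per kilobase, its mean level was 214 CPM in TR vehicle and 2.12 CPM in PAR vehicle.

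Several genes were read in resistant cells and had no count at all in parental cells. There a group floor of 3 counts sets only a lower limit to the fold. Intervals and floors cover counting error alone. Such genes met the detection rule through TR libraries alone, and TR had 12 libraries in which to reach it, against 3 of PAR. Their number, set against that of falls to no count, therefore tests nothing. LINC01639 (ENSG00000236117; chr22:43400331-43409681, plus strand) had 25.6, 34.6 and 35.9 CPM in TR vehicle and 0 CPM in each of the 3 PAR vehicle libraries. It was at least 499-fold higher in TR vehicle, with 2471 counts against 0 (adjusted p = 2.52e-09). LINC01519 (ENSG00000237267; chr10:85193421-85197958, minus strand) had 36.5, 21.8 and 28.6 CPM in TR vehicle and 0 CPM in each of the 3 PAR vehicle libraries. Its 2126 counts against 0 make it at least 430.0-fold higher (adjusted p = 3.63e-08). Both genes were expressed in all 12 TR libraries, from 25.6 to 63 CPM for LINC01639 and from 21.8 to 73.4 CPM for LINC01519.

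The same all-or-none pattern was seen at lower level in 7 further called genes. LINC00937 had such counts too, 30 in TR vehicle and 0 in PAR vehicle (at least 6.06-fold), and is not among these 7. LINC02300 had 2.89, 1.08 and 1.37 CPM in TR vehicle and 0 in PAR vehicle, at least 25.3-fold higher (adjusted p = 4.58e-05). LINC03071 was at least 23.2-fold higher (2.27, 0.973 and 1.54 CPM in TR vehicle; adjusted p = 1.66e-05), and LINC00871 at least 19.2-fold (1.91, 0.86 and 1.2 CPM in TR vehicle; adjusted p = 6.61e-05). The limits were lower for LINC02484 (at least 10.3-fold), LINC02541 (at least 9.5-fold), LINC01322 (at least 6.67-fold) and LINC00844 (at least 5.46-fold), since they had 27 to 51 counts in the 3 TR vehicle libraries together. Of the genes with a count in both groups, LINC03000 (ENSG00000241956; chr5:164296696-165171643, plus strand) had the largest fitted value, just above that of LINC02303. It had 22.4, 14.4 and 17.4 CPM in TR vehicle, against 0.0839, 0 and 0.218 CPM in PAR vehicle, a log2 fold change of 6.91 ± 0.45 (SE, edgeR adjusted p = 4.25e-08). LINC02303, LINC00871 (chr14:45891087-46501903, plus strand) and LINC02300 (chr14:28592223-28613623, minus strand) lie on chromosome 14, and the start of LINC00871 is the nearer of the other 2 to LINC02303.

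**Figure D2:**
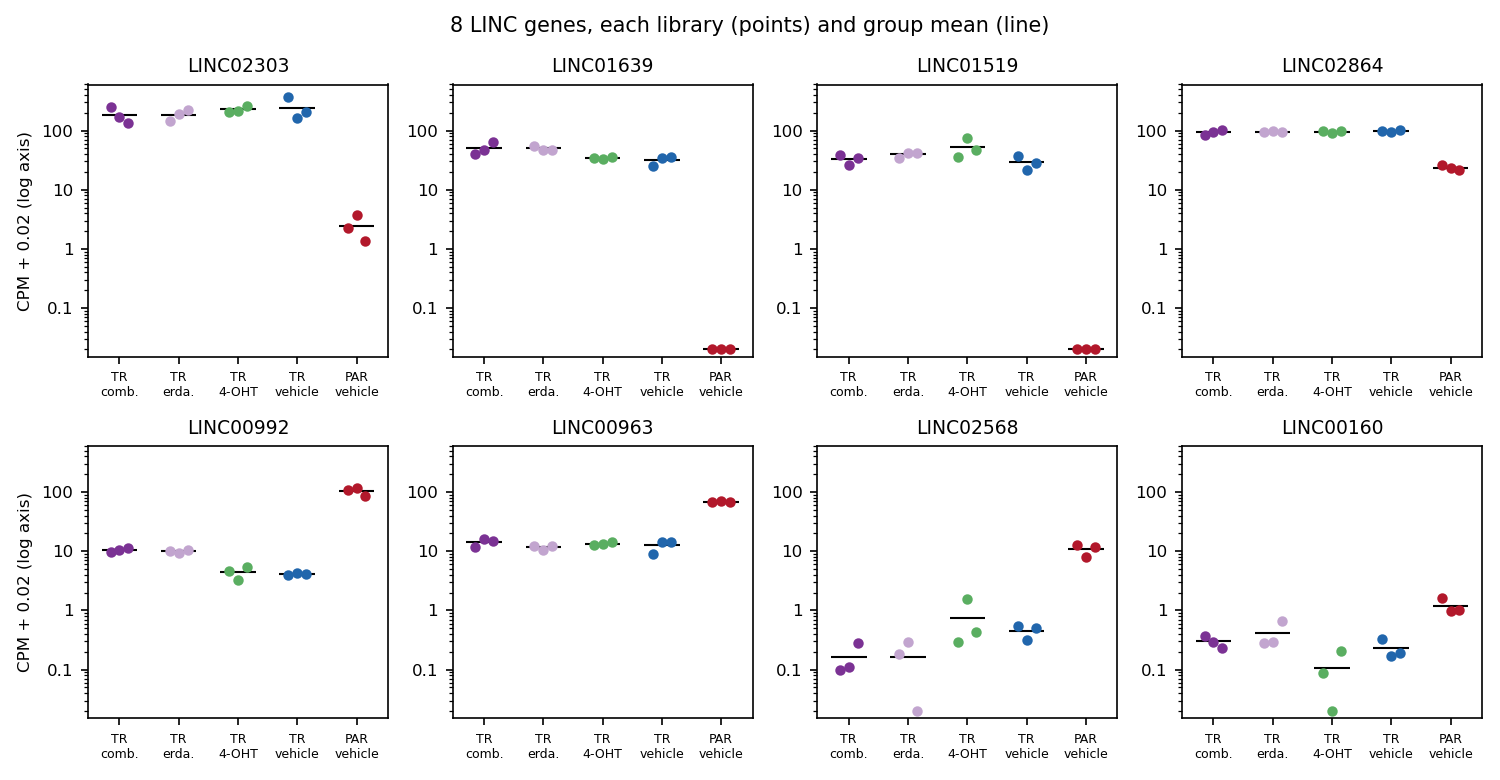
Level of 8 LINC genes in each of the 15 libraries (CPM on a log axis with a small constant added so that zeros can be drawn), with groups from left to right TR combination, TR erdafitinib, TR 4-OHT, TR vehicle and PAR vehicle; each point is a library and the line is the group mean. LINC02303, LINC01639, LINC01519 and LINC02864 stand higher in all 12 TR libraries than in the 3 PAR libraries, and LINC00992, LINC00963, LINC02568 and LINC00160 stand lower.

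Some rises were smaller and better measured. The following genes were chosen after their values were seen. LINC02864 had 99.4, 94.8 and 103 CPM in TR vehicle and 25.8, 23.2 and 21.8 CPM in PAR vehicle, a log2 fold change of 2.07 ± 0.12 (SE, edgeR adjusted p = 1.84e-08). LINC00839 averaged 9.7 ± 0.527 CPM in TR vehicle and 0.197 ± 0.175 CPM in PAR vehicle (SD, n = 3 each), with a log2 fold change of 5.35 ± 0.39 (SE, edgeR adjusted p = 1.51e-07). LINC00899 averaged 29 ± 6.47 CPM in TR vehicle and 3.9 ± 2.87 CPM in PAR vehicle, a log2 fold change of 2.82 ± 0.43 (SE, edgeR adjusted p = 0.000173). None of the 3 had overlapping groups.

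LINC01186, on chromosome X, had no count in TR vehicle and 2.35, 2.06 and 0.728 CPM in PAR vehicle, which makes it at least 33.5-fold lower in TR vehicle (61 counts in PAR vehicle, adjusted p = 0.00034). LINC00992 (ENSG00000248663; chr5:117415509-117546298, plus strand; 1144 bases of exon) had the highest level in PAR vehicle of the genes that fell. It had 3.87, 4.19 and 4.1 CPM in TR vehicle, against 108, 117 and 86.3 CPM in PAR vehicle, a log2 fold change of -4.67 ± 0.21 (SE, edgeR adjusted p = 1.48e-09). The 12 TR libraries ranged from 3.27 to 11.3 CPM, all far below the lowest PAR library.

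A pair of overlapping genes beside the HOXD cluster of developmental transcription factors fell together. LINC01116 (ENSG00000163364; chr2:176629572-176637931, minus strand) had 0.103, 0.224 and 0.103 CPM in TR vehicle and 2.68, 2.54 and 4.22 CPM in PAR vehicle, a log2 fold change of -4.41 ± 0.50 (SE, edgeR adjusted p = 1.15e-05). LINC01117, which spans it on the opposite strand (chr2:176495255-176819180, plus strand), had 2 counts in TR vehicle and 51 in PAR vehicle. It was lower in TR vehicle by a ratio of 42.1 (exact 95% interval 11.1 to 357.0, adjusted p = 0.000204). The counting used strand, so the 2 readings are separate as far as the stranded protocol held.

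LINC02568, described with the oestrogen receptor genes, and 5 others complete the 10 largest falls. LINC03026 had 0.361, 0.0748 and 0.103 CPM in TR vehicle and 5.29, 3.81 and 2.47 CPM in PAR vehicle (log2 fold change -4.47, adjusted p = 0.00014). LINC01359 and LINC02848 had log2 fold changes of -3.42 (adjusted p = 0.000364) and -3.0 (adjusted p = 0.00484). LINC02889, which lies 59327 bases from the aryl hydrocarbon receptor gene AHR, had -3.81 (adjusted p = 0.00327), and AHR fell as well (-1.35, adjusted p = 0.00111). LINC02208 had 0.413, 0.15 and 0.171 CPM in TR vehicle and 2.35, 4.29 and 1.46 CPM in PAR vehicle, and its call of -3.44 (adjusted p = 0.0228) was lost without PAR vehicle 2 and without TR vehicle 2 or 3. LINC02208 and LINC00992 are neighbours on chromosome 5, on opposite strands.

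LINC00963 and LINC03015 also fell and were read well in both groups. LINC00963 averaged 12.6 ± 3.07 CPM in TR vehicle and 68.7 ± 1.86 CPM in PAR vehicle (SD, n = 3 each), a log2 fold change of -2.45 ± 0.20 (SE, edgeR adjusted p = 4.02e-07). LINC03015 averaged 4.67 ± 0.879 CPM in TR vehicle and 27.2 ± 4.21 CPM in PAR vehicle, a log2 fold change of -2.54 ± 0.25 (SE, edgeR adjusted p = 2.53e-06). The 3 TR vehicle libraries lay below the 3 PAR vehicle libraries in both genes.

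Promoter windows from RefSeq (GRCh38.p14) were at hand for 177 of the 285 genes, as the 250 bases before and 50 bases after a start site. Those of 6 genes are given 5′ to 3′ on the gene's own strand, since they belong to the largest differences among the better-read genes. They are the 3 largest rises and the 3 largest falls whose log2 CPM averaged 1 or more, with a window in that table. Capitals mark matches to 6 short patterns, searched on both strands: the full oestrogen response element, which is GGTCA and its reverse complement with any 3 bases between, the AP-1 pattern TGANTCA, the TEAD pattern GGAATG, the interferon response core, which is GAAA, any 2 bases and GAAA again, the TATA box TATAAA and the GC box GGGCGG. The first 3 are the genes that rose, at chr22:43400081-43400380 (plus strand), chr10:85198889-85199188 (minus strand, a start site 980 bases from the counted gene's start) and chr5:164296455-164296754 (plus strand).
LINC01639: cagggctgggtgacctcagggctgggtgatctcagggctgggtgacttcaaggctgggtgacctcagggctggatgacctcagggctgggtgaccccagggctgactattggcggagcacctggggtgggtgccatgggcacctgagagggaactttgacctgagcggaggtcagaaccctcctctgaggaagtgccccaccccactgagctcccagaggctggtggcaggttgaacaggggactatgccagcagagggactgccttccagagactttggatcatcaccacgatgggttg
LINC01519: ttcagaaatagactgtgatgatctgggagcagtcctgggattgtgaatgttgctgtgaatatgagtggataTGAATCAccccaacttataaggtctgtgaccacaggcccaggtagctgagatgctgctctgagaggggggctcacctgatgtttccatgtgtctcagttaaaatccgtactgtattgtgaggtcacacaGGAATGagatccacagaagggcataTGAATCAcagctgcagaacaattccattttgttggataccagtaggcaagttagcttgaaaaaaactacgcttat
LINC03000: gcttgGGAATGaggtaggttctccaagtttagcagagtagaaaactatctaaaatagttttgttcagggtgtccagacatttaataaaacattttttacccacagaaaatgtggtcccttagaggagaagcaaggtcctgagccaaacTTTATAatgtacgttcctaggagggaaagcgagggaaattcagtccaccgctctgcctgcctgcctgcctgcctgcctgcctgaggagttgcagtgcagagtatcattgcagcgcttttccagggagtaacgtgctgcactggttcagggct
The other 3 fell, at chr5:117415262-117415561 (plus strand), chr7:149389-149688 (minus strand) and chr9:129488410-129488709 (plus strand, 11714 bases from the counted gene's start).
LINC00992: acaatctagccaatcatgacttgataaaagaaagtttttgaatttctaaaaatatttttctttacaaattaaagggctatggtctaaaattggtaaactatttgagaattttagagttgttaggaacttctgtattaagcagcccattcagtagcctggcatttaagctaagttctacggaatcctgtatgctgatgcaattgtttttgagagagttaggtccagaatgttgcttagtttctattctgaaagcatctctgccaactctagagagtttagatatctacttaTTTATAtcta
LINC03015: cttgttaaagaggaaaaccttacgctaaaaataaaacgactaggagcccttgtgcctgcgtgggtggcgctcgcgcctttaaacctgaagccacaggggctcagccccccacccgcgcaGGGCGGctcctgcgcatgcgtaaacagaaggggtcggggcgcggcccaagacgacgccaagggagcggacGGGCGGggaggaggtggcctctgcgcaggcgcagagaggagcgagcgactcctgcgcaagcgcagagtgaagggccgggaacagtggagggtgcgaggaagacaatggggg
LINC00963: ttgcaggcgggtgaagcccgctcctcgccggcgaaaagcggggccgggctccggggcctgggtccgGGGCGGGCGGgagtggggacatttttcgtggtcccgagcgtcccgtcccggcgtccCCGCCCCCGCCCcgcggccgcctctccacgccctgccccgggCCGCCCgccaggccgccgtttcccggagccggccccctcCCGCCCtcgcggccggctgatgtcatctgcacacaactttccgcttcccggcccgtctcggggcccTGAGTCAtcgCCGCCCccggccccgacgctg
The window of LINC01639 held no match, and that of LINC01519 held 2 AP-1 matches and a TEAD match. LINC03000 had a TEAD and a TATA box match, and LINC00992 a TATA box match downstream of its start in a window of 32.3% G and C. LINC00963 stood at the other end, with 78.0% G and C, 43 CpG dinucleotides and 7 GC box matches, which overlap in places, besides 1 AP-1 match.

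Among the LINC genes with a window, base composition differed between the directions. Of their 177 windows, 105 start within 100 bases of the counted gene's start, so others may not be the promoter of the counted transcript. The median window of the 33 genes higher in TR vehicle was 46.0% G and C with 5 CpG, against 59.2% and 14.5 CpG for the 38 genes lower, 58.3% and 11.5 CpG for the 100 not called and 58.3% and 14 CpG for the 27305 genes in the table. The GC box pattern was in 24.2% of the windows of genes that rose (8 of 33), in 55.3% of those of genes that fell (21 of 38) and in 44.6% of all windows. The TATA box was in 18.2% of the windows of genes that rose, 5.26% of those of genes that fell and 12% of all. The TEAD pattern was in 24.2% and 23.7% of the windows of genes that rose and of genes that fell, in 8.0% of those of genes not called and in 14.0% of all. AP-1 was in 6.06%, 7.89% and 10% of the windows of genes that rose, that fell and that were not called, and in 7.76% of all, and the interferon core was in 3.03%, 5.26%, 1.0% and 3.65%. The full oestrogen response element was in none of the 177 windows and in 18 of all 27305 (0.0659%). These are counts of letters in windows and carry no test, and a match is no evidence of a bound site. Windows of all genes called higher or lower were not compared, so the contrast cannot be read as particular to LINC genes.

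A list of 7 LINC genes linked to the oestrogen receptor in breast cancer was drawn up for these cells, and 4 of them passed the detection rule. Of those 4, 2 fell and 1 rose in TR vehicle, where 16% of all genes tested fell and 19.9% rose. The log2 fold changes of the 4 ran from -4.63 to 1.29 with a median of -1.42, beside 0.07 for all genes tested, and 4 genes are too few to set against that background. LINC02568, an oestrogen-responsive transcript, had 0.516, 0.299 and 0.479 CPM in TR vehicle and 12.7, 7.94 and 11.6 CPM in PAR vehicle, a log2 fold change of -4.63 ± 0.68 (SE, edgeR adjusted p = 0.000105). Its neighbour CA12, a carbonic anhydrase gene that is itself an oestrogen receptor target, stands 8290 bases away on the other strand and averaged 483 ± 20.1 CPM in TR vehicle and 435 ± 46.6 CPM in PAR vehicle (log2 fold change 0.15, adjusted p = 0.38). LINC00160, also described as an oestrogen receptor target, had 0.31, 0.15 and 0.171 CPM in TR vehicle and 1.59, 0.953 and 0.982 CPM in PAR vehicle, a log2 fold change of -2.50 ± 0.58 (SE, edgeR adjusted p = 0.00403). CLIC6, a chloride channel gene 5580 bases from it, fell too (log2 fold change -3.89, adjusted p = 1.15e-06).

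LINC01016, a direct target of oestrogen receptor alpha in breast cancer cells, did not pass between the lines. It had 8, 9.65 and 7.76 CPM in TR vehicle and 11.2, 10.3 and 10.6 CPM in PAR vehicle, so that every PAR vehicle library was above the TR vehicle libraries while the log2 fold change was only -0.33 ± 0.19 (SE, edgeR adjusted p = 0.192). LINC00472, a transcript reported as raised by the receptor and as a growth inhibitor, moved the other way: it had 56.1, 25.9 and 31.1 CPM in TR vehicle and 22.1, 11.8 and 12.4 CPM in PAR vehicle, a log2 fold change of 1.29 ± 0.30 (SE, edgeR adjusted p = 0.00427). Its groups did not overlap, but TR vehicle 1 was well above the other 2 TR vehicle libraries, and with only the 2 groups in the fit the adjusted p was 0.0529. The other 3 genes of the list, LINC01087, LINC00993 and LINC01488, had 1, 6 and 22 counts in all 15 libraries together.

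LINC00472 is the host gene of MIR30A and MIR30C2, which lie within it at chr6:71403551-71403621 and chr6:71376960-71377031 (minus strand). MicroRNAs recognise their targets mainly by the seed, bases 2 to 8, given here in capitals, and the 5p arms share theirs. The sequences are shown because they are what the host transcript encodes; they are RefSeq's, and mature microRNAs were not measured by these libraries.
hsa-miR-30a-5p: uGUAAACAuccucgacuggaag
hsa-miR-30c-5p: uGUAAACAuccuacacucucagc
hsa-miR-30a-3p: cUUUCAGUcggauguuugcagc
hsa-miR-30c-2-3p: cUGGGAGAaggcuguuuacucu
The 5p seed GUAAACA defines the miR-30 family, and the 3p arms have other seeds. LINC01138, host of MIR5087 (hsa-miR-5087: gGGUUUGUagcuuugcuggcaug), was the other host found among the 285 genes. It fell, with a log2 fold change of -2.30 ± 0.31 (SE, edgeR adjusted p = 4.86e-05), and was chosen here after its value was seen. Part of its transcript, 9.63%, is nearly identical to other genes, where reads that match several places were left out of the counts.

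The 10 highest levels per kilobase over all libraries held genes of both directions and some that did not differ. LINC02303 led with 147 CPM per kilobase, followed by LINC01639 with 35.1, LINC00992 with 23.2, LINC00674 with 18.7 and LINC01519 with 15.1. Next came LINC02820 with 13.5, LINC00173 with 12.1, LINC02967 with 11.1, LINC00106 with 10.5 and LINC01278 with 9.39. LINC02820, LINC00106 and LINC01278 did not pass between the lines (log2 fold changes -0.26, -0.24 and 0.30). LINC00674 rose (0.87, adjusted p = 0.0174) and LINC02967 fell (-0.79, adjusted p = 0.0136), but neither call was kept in every fit: leaving out PAR vehicle 2 or TR vehicle 1 ended that of LINC00674, and leaving out TR vehicle 2 or 3 that of LINC02967.

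LINC genes often lie close to protein-coding genes, so each was set beside its nearest tested protein-coding gene within 100 kb. There were 188 such pairs, of which 121 (64.4%) had log2 fold changes of one sign in TR vehicle over PAR vehicle, against 7032 of 11812 (59.5%) for protein-coding genes and their own nearest protein-coding gene. Both partners were called in 33 pairs, and 24 of those (72.7%) moved in one direction, near the 73.4% of protein-coding pairs. Within 20 kb both were called in 18 pairs and agreed in 16 (88.9%), and within 5 kb both were called in 9 pairs and agreed in all 9, against 73.4% and 665 of 888 (74.9%) of protein-coding pairs. With 9 pairs this is a description of few genes.

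In 6 of the 9 close pairs both genes fell. LINC00938 had 26.8, 20.5 and 22.1 CPM in TR vehicle and 47.3, 48.6 and 52.1 CPM in PAR vehicle (log2 fold change -1.09 ± 0.20 SE, edgeR adjusted p = 0.000638). ARID2, a subunit of the PBAF chromatin remodelling complex, is transcribed away from it from a start 1931 bases off, and had -0.77 (adjusted p = 0.0384). LINC02894 (log2 fold change -1.78) pairs in the same way with ESRP1, an epithelial splicing regulator, which had -1.0 (adjusted p = 0.00031). LINC02615 (-1.35) and PGRMC2, a progesterone receptor membrane component gene (-0.80, adjusted p = 0.000654), are also divergent. LINC01359 (-3.42) overlaps JAK1, a cytokine receptor kinase gene, on the same strand (-0.85, adjusted p = 0.000529), so any reads in exons of both genes cannot be told apart. The falls of LINC02977 (-2.15, beside SUSD1) and LINC00852 (-2.10, beside TATDN2) did not hold without single libraries: LINC00852 was -1.22 and not called without PAR vehicle 2, and LINC02977 lost its call without PAR vehicle 1 or 3 or TR vehicle 1, 2 or 3, as LINC00852 did without TR vehicle 1 or 3.

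The other 3 close pairs rose. LINC01639 and MPPED1, a metallophosphoesterase gene 1515 bases away on the same strand, both had no count in PAR vehicle, and MPPED1 averaged 31.9 ± 9.52 CPM in TR vehicle and 0 in PAR vehicle (adjusted p = 6.71e-08). LINC01322 overlaps BCHE, the butyrylcholinesterase gene, on the opposite strand, and BCHE averaged 33.9 ± 9.67 CPM in TR vehicle and 5.27 ± 2.21 CPM in PAR vehicle (log2 fold change 2.74, adjusted p = 1.34e-05). LINC01322 had only 33 counts in the TR vehicle libraries together. Its reading is separate from that of BCHE only as far as the stranded protocol held. LINC02600 (ratio 25.5, exact 95% interval 6.83 to 214.0) is divergent from ADRA2C, an adrenergic receptor gene (2.54, adjusted p = 0.0338).

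Further from their partners, genes chosen after their values were seen went both ways. LINC02649 fell (-2.02) beside PFKFB3, an activator of glycolysis 16525 bases away, which averaged 36.2 ± 4.58 CPM in TR vehicle and 246 ± 40.5 CPM in PAR vehicle (-2.76, adjusted p = 1.17e-07), though the call of LINC02649 was lost without PAR vehicle 1 or TR vehicle 1 or 3. LINC01036 averaged 13.2 ± 2.69 CPM in TR vehicle and 1.3 ± 1.37 CPM in PAR vehicle (3.62 ± 0.56 SE, edgeR adjusted p = 0.000166), and PLA2G4A, the cytosolic phospholipase A2 gene 81719 bases away, averaged 23.8 ± 8.23 CPM in TR vehicle and 0.798 ± 0.414 CPM in PAR vehicle (5.04). LINC01633 and NIBAN1 moved in opposite directions, at 3.17 and -2.53. So did LINC00243 (-2.86) and DDR1, a collagen receptor gene, which averaged 803 ± 404 CPM in TR vehicle and 232 ± 65.9 CPM in PAR vehicle (1.79), and LINC02246 (1.98) and NRIP1, a corepressor of the oestrogen receptor (-1.66). The call of LINC00243 was lost without TR vehicle 2 or 3, and that of LINC02246 without PAR vehicle 1 or 2 or TR vehicle 1 or 3.

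**Figure D3:**
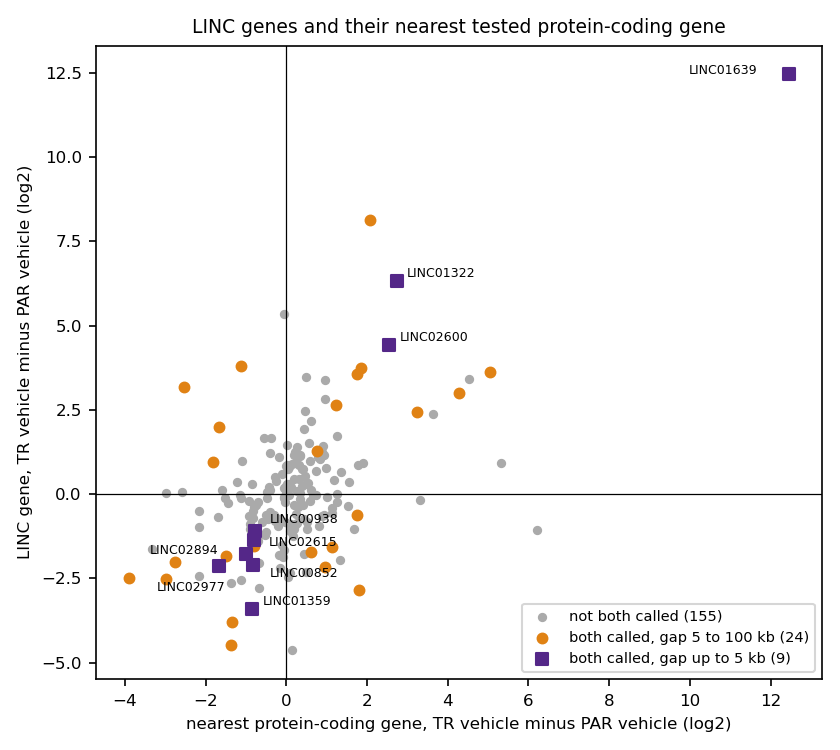
Log2 fold change of TR vehicle over PAR vehicle for the nearest protein-coding gene within 100 kb (horizontal axis) and for the LINC gene (vertical axis), 1 point for each of 188 pairs: 9 pairs within 5 kb and 24 pairs further apart have both genes called, and 155 do not. The 9 close pairs all lie in the lower left or upper right part, where both genes moved one way; the point of LINC01639 is a fitted value for 2 genes with 0 counts in PAR vehicle and is no bound.

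The balance of rises and falls varied between chromosomes, in small numbers that carry no test. On chromosome 21, 8 of the 14 LINC genes tested rose and 2 fell, where 26.6% of all tested genes of that chromosome rose and 12.8% fell. The 8 were LINC01697, LINC01687, LINC00205, LINC00113, LINC01671, LINC00323, LINC02246 and LINC00649, of which LINC00323 also lost its call without 1 library, PAR vehicle 3. The calls of LINC01687, LINC00113, LINC01671 and LINC00649 were not followed gene by gene through the alternative fits. On chromosome 10, 7 of 14 rose and 1 fell, against 31.2% and 10.7% of all genes there. On chromosome 7 the picture was the reverse, with none of 17 higher and 9 lower, against 13.4% and 21.8% of all genes there. Those 9 were LINC03015, LINC02981, LINC01003, LINC02889, LINC00957, LINC02848, LINC03006, LINC00174 and LINC02604. Among them, LINC01003, LINC00957, LINC03006, LINC00174 and LINC02604 were not followed through the alternative fits either.

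**Figure D4:**
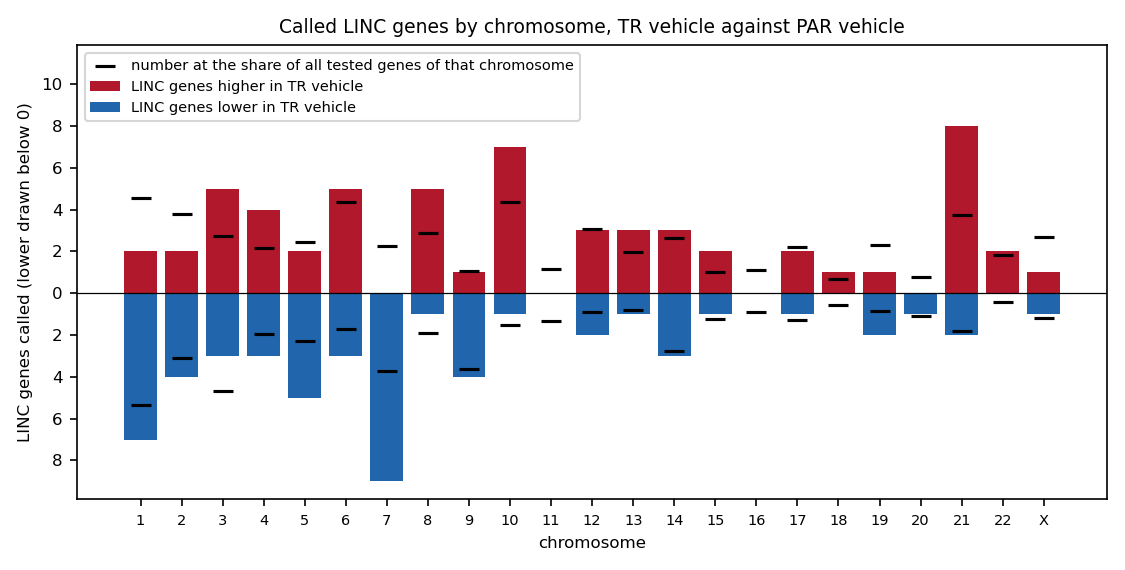
Number of LINC genes called higher (upward bars) and lower (downward bars) in TR vehicle than in PAR vehicle on each chromosome; black ticks give the number at the share of all tested genes of that chromosome. Chromosomes 10 and 21 are among those with more rises than their ticks, and chromosome 7 has the most falls, 9, and no rise.

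The resistant cells on 4-OHT were compared with the resistant cells on vehicle to ask what the drug itself changes in cells kept in it. No LINC gene passed, of 276 tested, as no gene did of all 16210 (edgeR quasi-likelihood test, 0% called). DESeq2 also gave 0 LINC genes, and 5 LINC genes (1.81%) had an unadjusted p under 0.05, where 0.783% of all genes did. The smallest p was that of LINC01519, with 36.3, 73.4 and 46.9 CPM in TR 4-OHT and 36.5, 21.8 and 28.6 CPM in TR vehicle (log2 fold change 0.85 ± 0.27 SE, edgeR adjusted p = 1). LINC01359 (1.66) and LINC01977 (-0.95) followed, at adjusted p of 1 each.

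Erdafitinib moved few LINC genes in the resistant cells. Without 4-OHT, 1 of 276 passed (TR erdafitinib against TR vehicle), and 0.0925% of all genes tested did, 0.0432% higher and 0.0494% lower. With 4-OHT, 2 of 276 passed (TR combination against TR 4-OHT), and 0.642% of all genes did, 0.296% higher and 0.345% lower. With both contrasts averaged in one fit, 7 of 276 (2.54%) passed, 3 higher and 4 lower, against 1.71% of all genes, 0.777% higher and 0.938% lower. Leaving out any 1 TR library but TR vehicle 1 brought the averaged count to 2 to 4, and a fit with the first axis of the within-group spread as a covariate brought it to 26 (9.42%), while that fit called 15.0% of all genes. With so few genes on either side, no excess of LINC genes over the background can be read from these 3 counts.

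LINC00992, the abundant gene that fell between the lines, was the one gene called in all 3 comparisons, and it was higher with erdafitinib. It had 9.94, 9.33 and 10.6 CPM in TR erdafitinib and 3.87, 4.19 and 4.1 CPM in TR vehicle, a log2 fold change of 1.29 ± 0.19 (SE, edgeR adjusted p = 0.0173). It had 9.62, 10.4 and 11.3 CPM in TR combination and 4.68, 3.27 and 5.48 CPM in TR 4-OHT, a log2 fold change of 1.20 ± 0.19 (SE, edgeR adjusted p = 0.00776). The 6 libraries with erdafitinib all lay above the 6 TR libraries without it, and all 12 stayed below the 3 PAR vehicle libraries, the lowest of which had 86.3 CPM. The averaged effect was 1.25 ± 0.13 (SE, edgeR adjusted p = 0.000177) and held in every alternative fit. The call without 4-OHT was lost without TR vehicle 2 or 3 or any TR erdafitinib library, at log2 fold changes of 1.25 to 1.33.

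The oestrogen receptor target LINC01016 was also higher with erdafitinib. It had 17.1, 15.4 and 16.6 CPM in TR combination and 9.01, 7.6 and 9.25 CPM in TR 4-OHT (log2 fold change 0.92 ± 0.19 SE, edgeR adjusted p = 0.0431), and 16.8, 13.1 and 12.2 CPM in TR erdafitinib and 8, 9.65 and 7.76 CPM in TR vehicle (0.73 ± 0.19 SE, edgeR adjusted p = 0.355). The groups did not overlap in either contrast, and the averaged effect was 0.82 ± 0.13 (SE, edgeR adjusted p = 0.00495), held in every alternative fit, while the call with 4-OHT was lost without any 1 of its 6 libraries. The other genes of the oestrogen receptor list did not pass for erdafitinib: LINC00472 had an averaged log2 fold change of 0.46 (adjusted p = 0.413).

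The remaining 5 genes passed for the averaged effect only, and each lost its call without single libraries, 7 to 11 of the 12 TR libraries depending on the gene. LINC01588 was higher with the drug, at 12.4, 9.45 and 7.67 CPM in TR combination and 6.19, 6.31 and 5.21 CPM in TR 4-OHT, and at 9.18, 9.64 and 11.1 CPM in TR erdafitinib and 6.24, 5.69 and 4.17 CPM in TR vehicle (averaged 0.82 ± 0.19 SE, edgeR adjusted p = 0.04). LINC00173 was lower, at 19.2, 18.1 and 18.6 CPM in TR combination and 27.5, 35.7 and 33.5 CPM in TR 4-OHT, and at 21.8, 20.8 and 21.1 CPM in TR erdafitinib and 36.1, 31.3 and 33.9 CPM in TR vehicle (-0.73 ± 0.15 SE, edgeR adjusted p = 0.0222). The erdafitinib libraries did not overlap the others in either gene. MAP1LC3B2, a gene of the autophagy protein LC3 family that lies 11587 bases from LINC00173 on the same strand, was lower with it (averaged log2 fold change -1.85, adjusted p = 0.0107), the only pair within 100 kb in which both partners were called for erdafitinib.

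LINC02035 was lower too, at 3.19, 3.82 and 3.94 CPM in TR combination and 6.47, 7.13 and 4.79 CPM in TR 4-OHT, and at 2.95, 2.83 and 3.6 CPM in TR erdafitinib and 6.04, 5.61 and 5.44 CPM in TR vehicle (-0.80 ± 0.18 SE, edgeR adjusted p = 0.0349). LINC01503, the least abundant of the 7, had 0.118, 0.273 and 0.128 CPM in TR combination and 1.17, 3.74 and 0.651 CPM in TR 4-OHT, and 0.656, 0.545 and 0.107 CPM in TR erdafitinib and 0.825, 0.898 and 1.16 CPM in TR vehicle (-2.20 ± 0.48 SE, edgeR adjusted p = 0.0339). LINC02210 had 16.9, 22 and 19.1 CPM in TR combination and 28.5, 37.1 and 28.6 CPM in TR 4-OHT, and 22.6, 22 and 19 CPM in TR erdafitinib and 24, 27.4 and 30.8 CPM in TR vehicle (-0.53 ± 0.12 SE, edgeR adjusted p = 0.0379). It shares its strand with the readthrough gene LINC02210-CRHR1, so any reads in exons of both genes cannot be told apart. LINC00173 and LINC02210 also differed between the lines, at -0.62 (adjusted p = 0.0322) and 0.75 (adjusted p = 0.00344), but the call of LINC00173 there was lost without PAR vehicle 1, where its value was -0.31, and without PAR vehicle 2 or TR vehicle 2 or 3.

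**Figure D5:**
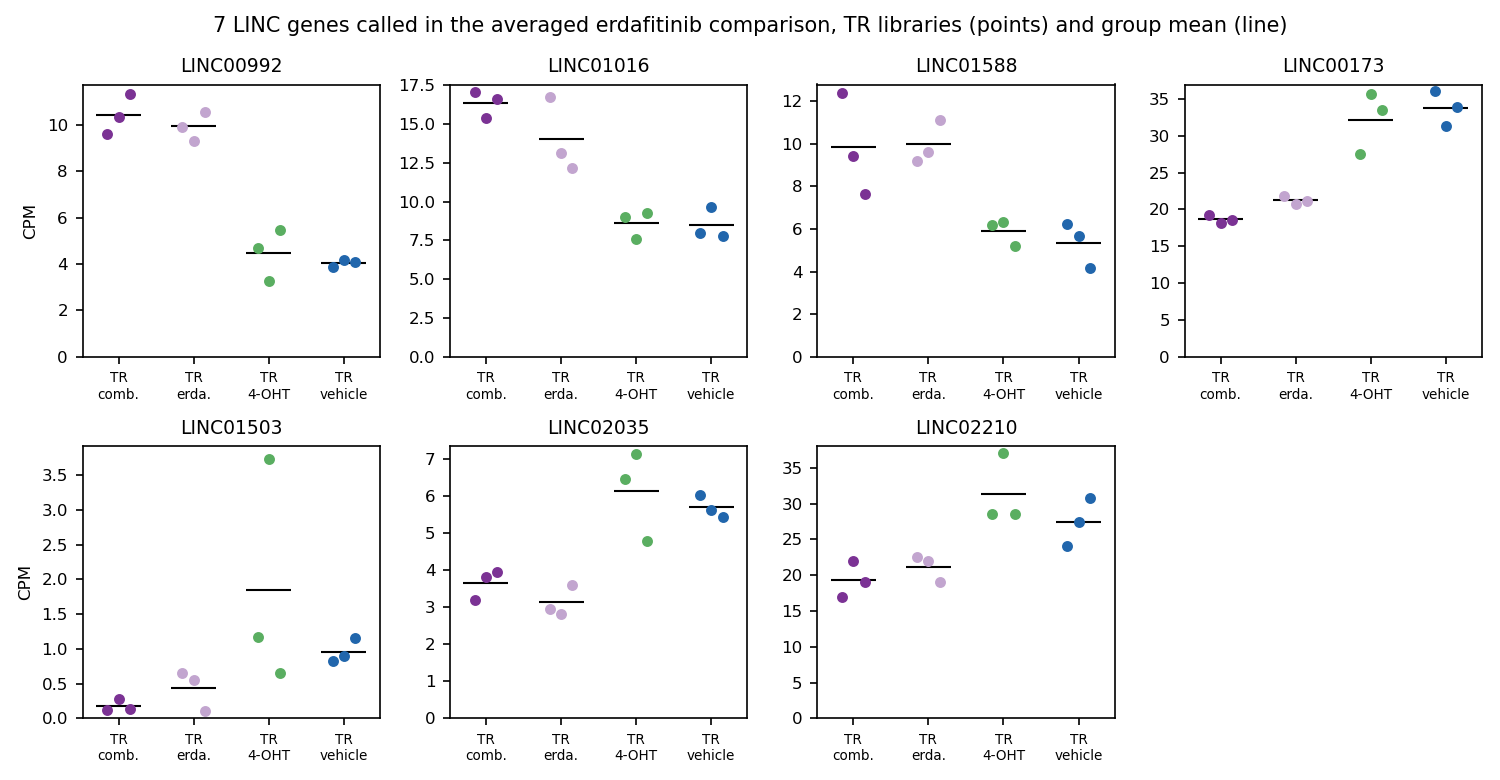
Level (CPM, linear axis from 0) of the 7 LINC genes called for the averaged erdafitinib effect, in the 3 libraries each of TR combination, TR erdafitinib, TR 4-OHT and TR vehicle; points are libraries and lines are group means. LINC00992, LINC01016 and LINC01588 stand higher in the 2 groups with erdafitinib, and LINC00173, LINC01503, LINC02035 and LINC02210 stand lower.

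Neither the addition of 4-OHT to erdafitinib nor the interaction of the 2 drugs gave a call. Between TR combination and TR erdafitinib, 0 of 276 LINC genes passed in edgeR and in DESeq2 (0% of all genes in edgeR), with 1 at an unadjusted p under 0.05, LINC02901 (0.173 ± 0.155 CPM in TR combination and 0.452 ± 0.12 CPM in TR erdafitinib, log2 fold change -1.39). The interaction also gave 0 LINC genes with both tools (0% of all genes in edgeR), with 2 at an unadjusted p under 0.05, LINC01519 (-1.11) and LINC01503 (-2.22). So the different numbers of calls with and without 4-OHT were not shown to differ. The 2 erdafitinib contrasts, which share no library, had one sign in 169 of the 276 LINC genes (61.2%), and in 67.9% of all genes tested.

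The genes that separated the lines were then read in TR combination over TR 4-OHT, a contrast that uses none of the same libraries. Of the 59 that were higher in TR vehicle than in PAR vehicle, 34 (57.6%) had a negative value, and so did 57.6% of all genes higher between the lines. Of the 54 that were lower, 36 (66.7%) had a positive value, beside 59.5% of all such genes. LINC00992 was the 1 gene of the 113 that was called there.

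A list of 52 long non-coding RNA genes whose symbols are not a LINC number served as a comparison in the same libraries. Of the 41 tested, 7 were higher in TR vehicle than in PAR vehicle and 12 were lower, with a median log2 fold change of 0.10. Of all genes tested, 19.9% were higher and 16% lower. DSCAM-AS1, a luminal transcript controlled by the oestrogen receptor, averaged 30.4 CPM in TR vehicle and 408 CPM in PAR vehicle (log2 fold change -3.74). GAS5, a snoRNA host gene, averaged 130.0 CPM in TR vehicle and 577 CPM in PAR vehicle (-2.15). SNHG1, SNHG7, SNHG8 and SNHG29 fell as well, SNHG12 rose, and SNHG5 and SNHG16 were not called. H19, CYTOR and MIR205HG rose, at 2.60, 3.50 and 3.88, and so did the abundant MALAT1, at 1.32. For the averaged erdafitinib effect, MIR205HG was the 1 gene of that list called, at -0.93, where 1.71% of all genes tested were called.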

How the data were processed

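Per the labels' protocols, for each of the 15 T47D libraries 100 ng of total RNA entered a stranded kit and was read as 150 bp pairs. The submitters' processing notes name HISAT2 2.1.0 and the GRCh38 genome. Each deposited file gives unnormalized counts for Ensembl 104 genes; its header, per the file headers, records featureCounts 2.0.1 run on read pairs with reverse strand, where the notes have version 1.4.6-p1. Reads that matched several places were left out by that command's defaults. Trimming was not given in the sources used here.

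The LINC genes, gene lists and promoter patterns were chosen with earlier results of these data known. Symbols came from a newer gene table (60463 of 60664 IDs), and types from GENCODE 29. Genes passing filterByExpr on the 5 groups (16210) were fitted together with edgeR 4.0.16 (R 4.3.3): TMM, a quasi-likelihood test on all 15 libraries and Benjamini-Hochberg adjustment over all genes tested. Per comparison, 276 of the 285 LINC genes were tested. DESeq2 1.42.0 was an alternative. Scripts were tested on simulated data. Genes named were the 10 largest rises and falls called per comparison, and with fewer than 3 calls also the 3 smallest p. The 10 highest levels per length, the oestrogen receptor list and genes within 5 kb of a called neighbour were named too. Others are marked, or are named for a printed promoter window, their chromosome, no count in PAR vehicle or a near-identical copy. Replicate numbers did not pair the libraries: correlations of same-numbered deviations ran from -0.891 to 0.841 (median -0.0886). Near-identical copies (98% identity over 100 bases or more) were sought with blastn 2.17.0: 11 of the 285 genes had at least 50% of a transcript in a copy, 1 of them called between the lines (LINC01145).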

Additional observations from a re-analysis of the deposited data

How the results depend on the processing

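Between TR vehicle and PAR vehicle, 113 LINC genes were called. The number was 69 with only the groups compared in the fit and 84 to 112 without 1 library, and stayed within 1.5 times of 113 under every other alternative run. The LINC share was above that of all genes in the main fit (40.9% against 35.9%) and in every alternative but 1. With the first axis of the within-group spread as a covariate, 144 LINC genes were called (52.2%), against 57.5% of all genes. Whether LINC genes were called more often than all genes thus depended on the fit. Calls were followed gene by gene for 48 of the named genes called between the lines in the main fit. Of these, 36 kept their call in every alternative in which they were tested, and some genes were not tested in every alternative. None of the called genes followed in this way changed sign in these alternatives.

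The counts for erdafitinib were small and moved. TR erdafitinib against TR vehicle gave 1 gene, but 2 with DESeq2 (0.725%, against 0.537% of all genes) and 6 with the covariate (2.17%, against 3.67%). It gave 0 with only the groups compared and 0 to 1 without 1 library. TR combination against TR 4-OHT gave 2, but 4 with DESeq2 (1.45%, against 1.78% of all genes) and 11 with the covariate (3.99%, against 8.22%). It gave 1 without the 2 smallest libraries (0.352%, against 0.424%) and 0 with only the groups compared, where 0.433% of all genes passed. Without 1 library it gave 1 to 2. The averaged effect gave 7, but 12 with DESeq2 (4.35%, against 3.58% of all genes) and 4 with no filter (1.4%, against 0.813%). It gave 26 with the covariate (9.42%, against 15.0%) and 11 with only the groups compared (4.25%, against 2.35%). Without 1 library it gave 2 to 7. LINC00992 and LINC01016 were called for it in every alternative. The covariate was the first axis of the within-group residuals, which held 61.4% of within-group variance. The causes of these shifts were not tested. The comparisons of 4-OHT and the interaction gave 0 in every alternative.

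With the replicate number as a block, although the numbers do not pair the libraries, 108 LINC genes were called between the lines (39.1%, against 34.2% of all genes). For erdafitinib 0 were called without 4-OHT and 1 with it (0.362%, against 0.469% of all genes). The averaged effect gave 4 (1.45%, against 1.15%). Of the 15 libraries, 7 correlated best with their own number.

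Without mitochondrial genes in the total, the LINC share was 0.197% in TR combination, 0.191% in TR erdafitinib, 0.205% in TR 4-OHT, 0.199% in TR vehicle and 0.178% in PAR vehicle. Within 20 kb, 80 pairs shared a sign. Genes that changed sign were not called: LINC00339 was 0.033 with no filter, LINC00926 0.14 under the block, LINC02245 0.11 with the covariate, and LINC02980, LINC01089 and LINC00664 -0.17, -0.053 and 0.14 without the 2 smallest libraries. Without 1 library, LINC00339 ran from -0.28 to 0.12, LINC00926 from -0.49 to 0.34, LINC02245 from -0.71 to 0.78, LINC02980 from -0.17 to 0.51, LINC01089 from -0.051 to 1.24, LINC00664 from -0.95 to 0.14, LINC00106 from -0.58 to 0.066, LINC01224 from -0.43 to 0.88 and LINC01202 from -0.30 to 0.60. Depth limits genes near 1 CPM, where 3 counts in the 3 PAR vehicle libraries together are 0.0656 CPM.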
